A study of Homo sapiens with 12 samples.

Results

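The transcripts of 5 CDK inhibitors, 3 D-type cyclins and the 2 kinases that these cyclins activate were followed in K562 leukemia cells with and without lycorine. The members were the rows of the count table with the symbols CDKN1A, CDKN1B, CDKN1C, CDKN2C, CDKN2D, CCND1, CCND2, CCND3, CDK4 and CDK6. They were taken by symbol, 10 of the 19447 in the table. The rule uses no measured value, but earlier results of these data were known when the members were chosen. All 10 passed the filter on low counts in every comparison. The libraries came from 4 groups of 3. The group K562 is the untreated parental line, a human chronic myeloid leukemia line that carries the BCR-ABL fusion. The group K562+L is the same line with 6 µM lycorine, an alkaloid of Amaryllidaceae plants. The group K562/IM is a single resistant line, grown out of K562 under stepwise increases of the BCR-ABL inhibitor imatinib (IM) and then kept in that drug. The group K562/IM+L carries the label of that resistant line with 6 µM lycorine. How long the cells were in lycorine before RNA was taken, and whether imatinib was present at that time, is not given in the sources used here. Nothing in the labels says that the 3 libraries of a group came from separate cultures, so the p-values measure the spread between these libraries, which may be technical.

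A cell leaves G1 when D-type cyclins, bound to CDK4 or CDK6, phosphorylate the retinoblastoma protein and release the E2F factors that drive the genes of DNA synthesis. Inhibitors of the INK4 family, encoded by CDKN2A, CDKN2B, CDKN2C and CDKN2D, bind CDK4 and CDK6 and keep the cyclin off. Inhibitors of the CIP/KIP family, p21 (CDKN1A), p27 (CDKN1B) and p57 (CDKN1C), bind cyclin-kinase pairs and block CDK2 above all. In chronic myeloid leukemia cells BCR-ABL signalling is known to keep p27 low and to favour D-type cyclins. Imatinib is known to reverse both and to hold such cells in G1. The study also measured the cell cycle by flow cytometry, and the comparisons below ask which of these transcripts differed with lycorine and with resistance.

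The depth was 75093844 to 107344598 total counts per library over the 12 libraries. Levels are given in CPM, counts scaled to the library total by TMM over the 12 libraries, and in CPM per kb of exons where different genes are set side by side. The label of the K562/IM+L group is in doubt, because the study names that group differently in its figures and in its sample labels. The transcript of ABCB1, the drug efflux pump P-gp, was at 22.9, 21.9 and 25.9 CPM in the K562/IM libraries. It was at 0.705, 0.488 and 1.06 CPM in the labelled K562/IM+L libraries, below every library of parental K562 (1.68 to 1.86 CPM). In K562+L it was at 3.83, 3.84 and 5.15 CPM, above every library of parental K562. For the protein, the study reports less P-gp by Western blot in K562/IM cells with lycorine than without. These values do not decide whether the label is right. The 15 erythroid genes listed summed to 3151 to 3362 CPM in K562/IM and to 41640 to 58860 CPM in the labelled K562/IM+L libraries, with parental K562 at 7226 to 9856 and K562+L at 4685 to 5415. All 15 were detected in every group, and all 15 were higher in the labelled K562/IM+L libraries than in K562/IM. The part of this erythroid difference in the results below was not tested. In bulk RNA, fewer cells of a type and less RNA per cell cannot be told apart. They are written as labelled K562/IM+L libraries throughout and are also set against parental K562.

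Promoter sequence is shown for 3 members with different behaviour across the 4 groups. CDKN1A differed between all groups, CDKN2D between none of its neighbouring levels, and CDK6 varied widely between libraries of the same group. The sequences are from RefSeq (GRCh38.p14) and run 5′ to 3′ on the gene's strand. A window is the 250 bases before the RefSeq start. Only its stretch before the first exon of the same gene within it (GENCODE release 29) is printed. Capitals mark the GC box, GGGCGG or its complement CCGCCC, a motif that SP-family factors are known to bind. The CDKN1A stretch lies at chr6:36678464-36678657 on the plus strand, in a promoter known for its GC boxes. GENCODE starts the gene further upstream, at 36676460, so this stretch lies inside the gene but outside its exons. The gene shares 146 bases of exon with DINOL on the other strand.
CDKN1A: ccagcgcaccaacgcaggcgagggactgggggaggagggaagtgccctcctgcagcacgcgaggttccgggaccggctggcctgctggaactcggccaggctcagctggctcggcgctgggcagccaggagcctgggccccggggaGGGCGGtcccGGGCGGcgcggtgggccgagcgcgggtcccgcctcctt
The CDKN2D stretch lies at chr19:10569060-10569229 on the minus strand.
CDKN2D: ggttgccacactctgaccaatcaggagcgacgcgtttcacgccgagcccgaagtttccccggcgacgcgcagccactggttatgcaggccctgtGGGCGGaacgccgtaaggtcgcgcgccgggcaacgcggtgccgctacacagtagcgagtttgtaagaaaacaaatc
The CDK6 stretch, the first of its 2 windows, lies at chr7:92836595-92836823 on the minus strand.
CDK6: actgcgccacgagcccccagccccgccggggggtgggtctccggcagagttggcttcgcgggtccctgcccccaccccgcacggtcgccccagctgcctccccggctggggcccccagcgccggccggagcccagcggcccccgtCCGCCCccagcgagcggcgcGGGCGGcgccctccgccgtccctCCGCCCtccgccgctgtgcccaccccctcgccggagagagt

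Of the members, 7 had at least 1 such window and 4 had exactly 1, giving 12 windows. No window was found for CDKN1C, CCND1 and CCND2. Searched on both strands over the whole 250 bases, the CDKN1A window held 4 GC boxes, of which the last 2 overlap by 1 base, and the CDK6 window held 3. The CDKN2D window held 2, together with 1 CCAAT box (CCAAT) and 1 E2F motif (TTTNNCGC). The CDKN1B window held 1 GC box and 2 CCAAT boxes. Among the members with 1 window, CDK4 alone had an E-box (CACGTG), the motif of MYC and related factors, and its window held 3 of them beside 3 GC boxes. CDKN2C, with 3 windows, held 1 E-box in the window from 50960495 and 1 in that from 50969995. Among all 35116 RefSeq promoter windows of this length, 42.6% held a GC box, 32.0% a CCAAT box, 6.34% an E-box and 5.92% the E2F motif. The motifs searched for FOXO factors (GTAAACA, in 2.98% of all windows), STAT factors (TTCNNNGAA, in 6.57%) and AP-1 (TGANTCA, in 6.57%) were not found in any window of the members. These matches describe the letters of the windows and nothing was measured at them here.

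**Figure D1:**
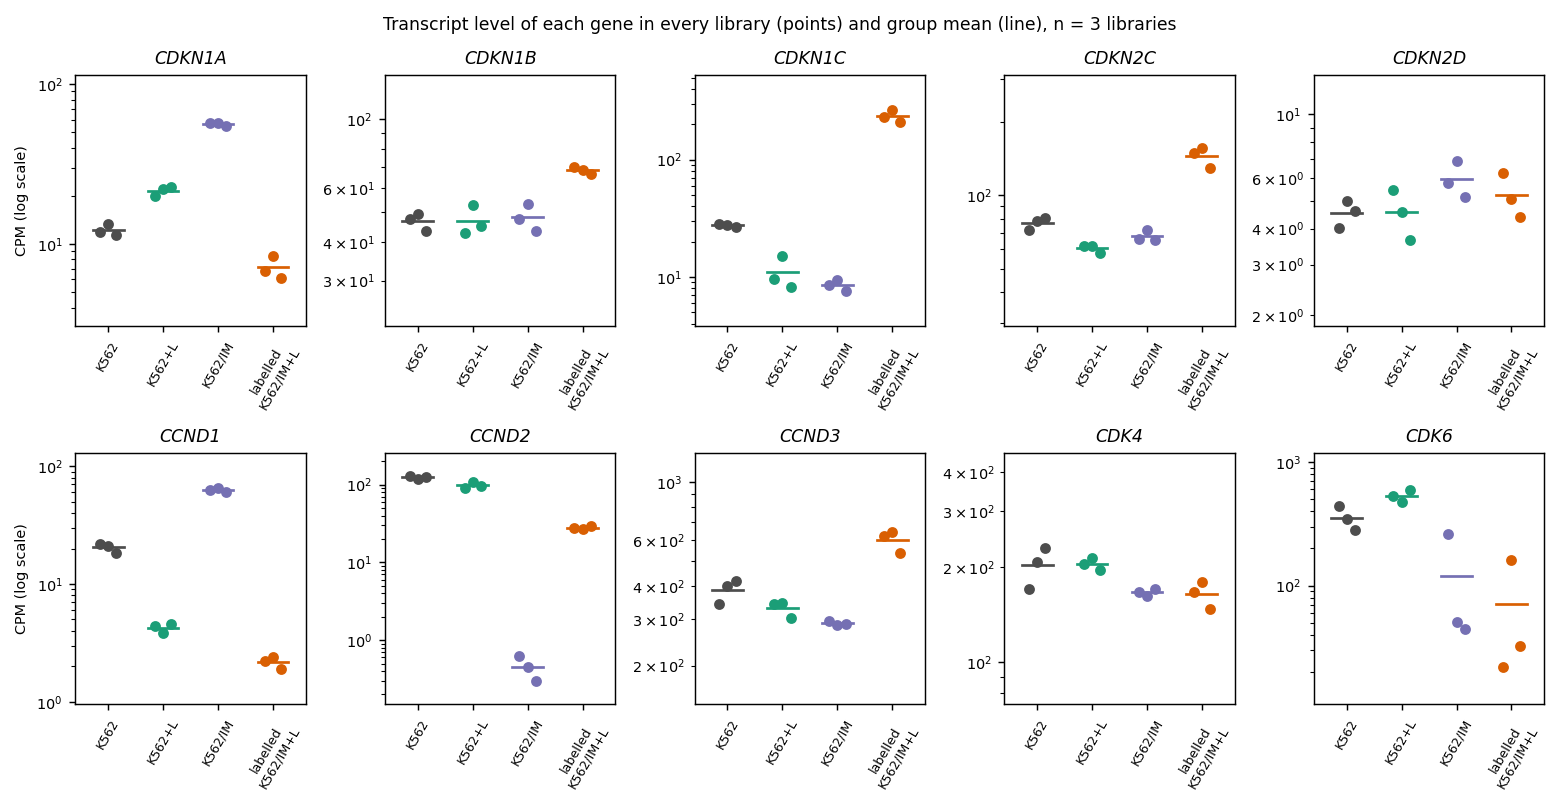
Transcript level in CPM (log scale, own axis for each gene) of the 10 members in the 12 libraries, grouped by line and treatment; each point is 1 library and each line the mean of 3. CCND2 in K562/IM, at 0.299 to 0.623 CPM against 117 to 128 CPM in K562, has the widest range of group means, and the CDK6 points spread widely in both groups labelled K562/IM.

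CDKN1A encodes p21, an inhibitor that stress signals are known to induce. It lies on chromosome 6 (GRCh38, 36676460 to 36687339, plus strand). In K562 it was at 11.9, 13.3 and 11.4 CPM. With lycorine it was at 19.9, 22.0 and 22.6 CPM. In K562/IM it was at 57.2, 57.4 and 54.3 CPM, and in the labelled K562/IM+L libraries at 6.78, 8.46 and 6.13 CPM. No library of one group overlapped with another group, and the order K562/IM, K562+L, K562, labelled K562/IM+L held with each neighbour passing the test. CDKN1A rose 1.76-fold with lycorine in K562 (log2 fold change 0.82, SE 0.10, edgeR quasi-likelihood test with Benjamini-Hochberg adjustment over all genes, adjusted p = 0.00133). It was 4.61-fold higher in K562/IM than in K562 (log2 fold change 2.20, SE 0.089, adjusted p = 1.74e-06). It was 7.77-fold lower in the labelled K562/IM+L libraries than in K562/IM (adjusted p = 1.64e-06) and 1.74-fold lower there than in parental K562 (adjusted p = 0.00443). The direction labelled as the lycorine effect was thus opposite in the lines, and the difference between the 2 effects was -3.80 on the log2 scale (SE 0.17, adjusted p = 7.71e-09).

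CDKN1B encodes p27, which is known to accumulate in resting cells and to be controlled mainly through its protein. It lies on chromosome 12 (12715058 to 12722371, plus strand). Its levels were 47.4, 49.5 and 43.3 CPM in K562, 42.7, 52.8 and 45.2 CPM in K562+L, and 47.5, 53.3 and 43.5 CPM in K562/IM. These 9 libraries formed 1 overlapping range. The log2 fold change was 0.00 with lycorine in K562 (95% interval -0.24 to 0.25) and 0.04 between K562/IM and K562 (95% interval -0.19 to 0.27), and neither passed. The labelled K562/IM+L libraries stood above all others at 69.9, 68.5 and 66.5 CPM, 1.45-fold over K562/IM (adjusted p = 0.00103) and 1.44-fold over K562 (adjusted p = 0.00163).

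CDKN1C encodes p57, an imprinted inhibitor known from differentiating and resting cells. It lies on chromosome 11 (2883213 to 2885773, minus strand). Its levels were 28.3, 27.4 and 26.8 CPM in K562 and 9.64, 15.2 and 8.18 CPM in K562+L. In K562/IM they were 8.48, 9.41 and 7.61 CPM. They reached 228.5, 265.2 and 208.7 CPM in the labelled K562/IM+L libraries, above every other library. CDKN1C fell 2.50-fold with lycorine in K562 (log2 fold change -1.32, SE 0.21, adjusted p = 0.00305) and was 3.24-fold lower in K562/IM than in K562 (adjusted p = 1.01e-05). It was 28.1-fold higher in the labelled K562/IM+L libraries than in K562/IM (log2 fold change 4.81, SE 0.13, adjusted p = 3.07e-07) and 8.41-fold higher there than in K562 (adjusted p = 7.96e-06). K562+L and K562/IM did not differ beyond their spread (adjusted p = 0.165). The erythroid sums moved the same way as CDKN1C with lycorine in K562 and in K562/IM against K562. They did so too in the labelled K562/IM+L libraries against K562/IM. Single genes did not all follow. In K562/IM against K562, 13 of the 15 were lower and HBE1 higher, at 543.9 against 97.6 CPM, beside 27.1% and 30.1% of all genes. With lycorine in K562, 10 were lower and 0 higher, beside 19.0% and 18.2%, though KLF1 was higher by value (173.7 against 138.7 CPM). The part of the erythroid genes in the levels of CDKN1C was not tested.

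Per kb of exons, the CIP/KIP transcripts together summed to 31.7 ± 1.58 CPM per kb in K562 (SD, n = 3), 28.2 ± 3.46 in K562+L, 39.0 ± 2.60 in K562/IM and 121.1 ± 12.2 in the labelled K562/IM+L libraries. The member that led this sum changed from group to group. CDKN1B made up 52.4% ± 0.926 of it in K562 and 59.3% ± 0.801 in K562+L. In K562/IM CDKN1A made up 47.4% ± 1.92 and CDKN1B 43.8% ± 1.59. In the labelled K562/IM+L libraries CDKN1C made up 77.9% ± 1.65 and CDKN1A only 1.92% ± 0.128.

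**Figure D2:**
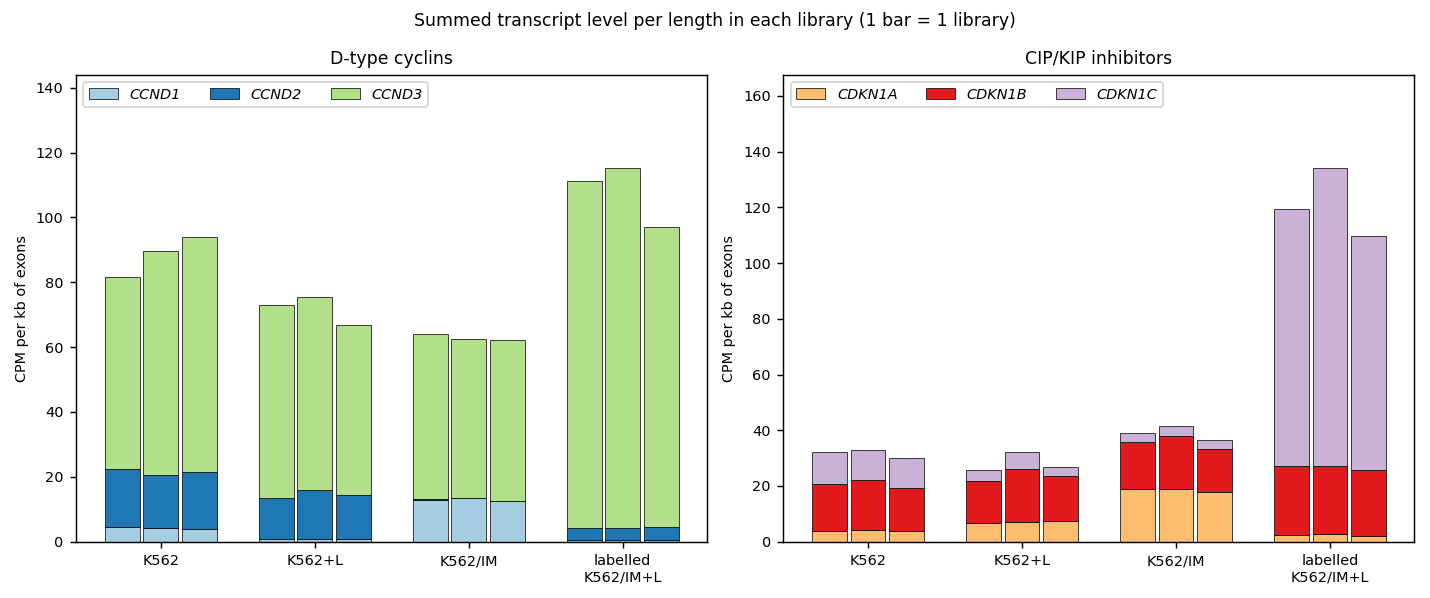
Summed level in CPM per kb of exons of the D-type cyclins (left) and the CIP/KIP inhibitors (right), 1 stacked bar for each of the 12 libraries with 1 colour for each gene. CCND3 is the main part of every cyclin bar (72.4% to 96.3% of it), while the main part of the inhibitor bar passes from CDKN1B in K562 to CDKN1C in the labelled K562/IM+L libraries.

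The INK4 genes CDKN2A and CDKN2B, which lie in a stretch that K562 is known to lack, had 0 to 5 and 0 to 4 counts in a library and are given no fold. The INK4 transcripts present were therefore CDKN2C (p18) and CDKN2D (p19). CDKN2C, an inhibitor known from differentiating cells, lies on chromosome 1 (50960745 to 50974633, plus strand). Its levels were 72.1, 78.5 and 80.8 CPM in K562 and 61.7, 62.0 and 58.1 CPM in K562+L. They were 66.2, 72.2 and 65.7 CPM in K562/IM and 148.2, 155.9 and 129.1 CPM in the labelled K562/IM+L libraries. The last group was 2.16-fold above K562/IM (log2 fold change 1.11, SE 0.088, adjusted p = 2.86e-05) and 1.85-fold above K562 (adjusted p = 4e-04), without overlap. CDKN2C fell 1.27-fold with lycorine in K562 (adjusted p = 0.0155). That call was lost without K562 replicate 2 (adjusted p = 0.0714) and without K562+L replicate 3 (adjusted p = 0.0652). CDKN2D lies on chromosome 19 (10566462 to 10569059, minus strand) and was the lowest member per length in K562. Its libraries ran from 3.67 to 6.88 CPM over all groups, neighbouring levels overlapped, and none of the 6 comparisons between groups passed. K562/IM over K562 had a log2 fold change of 0.39 (95% interval 0.02 to 0.76, adjusted p = 0.0697). Together the INK4 pair summed to 26.3 ± 1.63 CPM per kb in K562 (SD, n = 3) and to 47.0 ± 4.54 in the labelled K562/IM+L libraries, with CDKN2C making up 82.6% to 93.3% of the sum in single libraries.

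CCND1 encodes cyclin D1, the D-type cyclin known to follow RAS-MAPK and WNT signals most closely. It lies on chromosome 11 (69641087 to 69654474, plus strand), and 497 bases of its exons are shared with LTO1 on the other strand. Whether the counting used strand is not stated in the sources used here. CCND1 is among the genes that the study drew from these same libraries, so its change is not independent evidence. Its levels were 22.0, 21.0 and 18.3 CPM in K562 and 4.38, 3.86 and 4.56 CPM in K562+L. In K562/IM they were 62.6, 64.9 and 60.3 CPM. They were lowest in the labelled K562/IM+L libraries, at 2.23, 2.41 and 1.90 CPM, and no group overlapped with another. CCND1 fell 4.79-fold with lycorine in K562 (log2 fold change -2.26, SE 0.12, adjusted p = 4.81e-05), the largest change of any member in that comparison. It was 3.06-fold higher in K562/IM than in K562 (adjusted p = 7.29e-06). It was 28.2-fold lower in the labelled K562/IM+L libraries than in K562/IM (log2 fold change -4.82, SE 0.11, adjusted p = 1.78e-07) and 9.50-fold lower there than in K562 (adjusted p = 1.02e-05). CCND1 was thus lower in both groups labelled with lycorine than in the untreated group of the same name, and the 2 falls differed in size by -2.58 on the log2 scale (SE 0.15, adjusted p = 8.34e-08).

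CCND2 encodes cyclin D2, known in blood cells as a target of STAT5 and MYC and as repressed by FOXO factors. It lies on chromosome 12 (4273772 to 4305350, plus strand). GENCODE gives 989 bases of its exons to a second protein-coding gene on the same strand as well, one that has no row in the count table. Its levels were 128.3, 116.6 and 126.5 CPM in K562 and 90.5, 107.6 and 96.7 CPM in K562+L. In K562/IM only 0.623, 0.448 and 0.299 CPM were left, from 52, 43 and 32 counts. It was at 27.9, 26.9 and 29.1 CPM in the labelled K562/IM+L libraries. Every library of K562/IM was thus below 1 CPM, while the lowest of the other 9 libraries was at 26.9 CPM. CCND2 was 275.7-fold lower in K562/IM than in K562 (log2 fold change -8.11, SE 0.22, adjusted p = 3.82e-07), the widest change of a member in any comparison with an untreated group. It was 63.1-fold higher in the labelled K562/IM+L libraries than in K562/IM (log2 fold change 5.98, SE 0.24, adjusted p = 1.32e-06) and 4.49-fold lower there than in K562 (adjusted p = 7.96e-06). It fell 1.26-fold with lycorine in K562 (adjusted p = 0.0264). That call was lost in 4 of the 6 fits with 1 library left out, without K562 replicate 2 or 3 and without K562+L replicate 1 or 3 (adjusted p = 0.0592 to 0.0942).

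CCND3 encodes cyclin D3, known for its role in erythroid and lymphoid cells. It lies on chromosome 6 (41934933 to 42050357, minus strand). Its levels were 342.7, 401 and 420 CPM in K562, 344.3, 346.1 and 304.6 CPM in K562+L, and 295.6, 285.2 and 288.8 CPM in K562/IM. The labelled K562/IM+L libraries held 619.4, 643.8 and 537.8 CPM. The highest group did not overlap with any other, whereas K562 and K562+L overlapped. CCND3 was 1.34-fold lower in K562/IM than in K562 (adjusted p = 0.00415), 2.11-fold higher in the labelled K562/IM+L libraries than in K562/IM (adjusted p = 2.19e-05) and 1.53-fold higher there than in K562 (adjusted p = 0.00358). Its log2 fold change with lycorine in K562 was -0.23 (95% interval -0.46 to 0.00, adjusted p = 0.110), but it passed without K562 replicate 1 (adjusted p = 0.0202).

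Set side by side per length, CCND3 was the most abundant D-type cyclin in all 12 libraries, at 75.5% ± 2.68 of the cyclin sum in K562 (SD, n = 3) and 95.9% ± 0.468 in the labelled K562/IM+L libraries. CCND2 was next in K562 at 19.7% ± 2.05 and in K562+L at 19.2% ± 1.56. In K562/IM the place of CCND2 was taken by CCND1, which made up 20.6% ± 0.759 against 0.101% ± 0.0345 for CCND2. The cyclin sum itself was 88.4 ± 6.27 CPM per kb in K562, 71.8 ± 4.38 in K562+L, 63.0 ± 0.896 in K562/IM and 107.8 ± 9.47 in the labelled K562/IM+L libraries. The sum varied far less than CCND1 or CCND2 did.

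CDK4 and CDK6 encode the kinases that D-type cyclins activate. CDK4 lies on chromosome 12 (57747727 to 57756013, minus strand) and shares 1369 bases of exon with TSPAN31 on the other strand, so its level could include reads of that gene. Its libraries ran from 147.3 to 229.8 CPM in all. Its log2 fold change was 0.01 with lycorine in K562 (95% interval -0.25 to 0.28) and 0.01 in labelled K562/IM+L against K562/IM (95% interval -0.19 to 0.20). K562/IM was below K562 in every library, at 167.4, 162.3 and 170.3 CPM against 170.4, 207.0 and 229.8 CPM, but the test was not passed (log2 fold change -0.28, adjusted p = 0.0594). It was passed without K562 replicate 1 (log2 fold change -0.42, adjusted p = 0.0012). CDK4 was higher in K562+L than in K562/IM, without overlap (log2 fold change 0.286, SE 0.059, adjusted p = 0.0024). K562+L was also above the labelled K562/IM+L libraries, without overlap (log2 fold change 0.345, SE 0.093, adjusted p = 0.0114). In these comparisons 66.9% and 67.2% of all genes passed. The second call was lost with upper-quartile normalization (adjusted p = 0.252).

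CDK6, a kinase with known roles in early blood cells, lies on chromosome 7 (92604921 to 92836594, minus strand). Its levels were 439.2, 347.1 and 279.1 CPM in K562 and 529.3, 473.4 and 591.7 CPM in K562+L. The K562/IM libraries held 260.8, 50.4 and 44.6 CPM. The labelled K562/IM+L libraries held 21.9, 160.4 and 32.2 CPM. In each of these last 2 groups 1 library stood well above the other 2. Among the 8448 genes with a mean over 16 CPM, the log2 range of CDK6 over the libraries of K562/IM was 2.52, the rank of 3 from the widest, where the median gene had 0.112. The range was 2.81 in the labelled K562/IM+L group, rank 13, where the median gene had 0.262. In K562 and K562+L the ranges were 0.652 (rank 548) and 0.321 (rank 1581). The other 8 members over that level had ranges of at most 0.817 in the 4 groups.

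**Figure D3:**
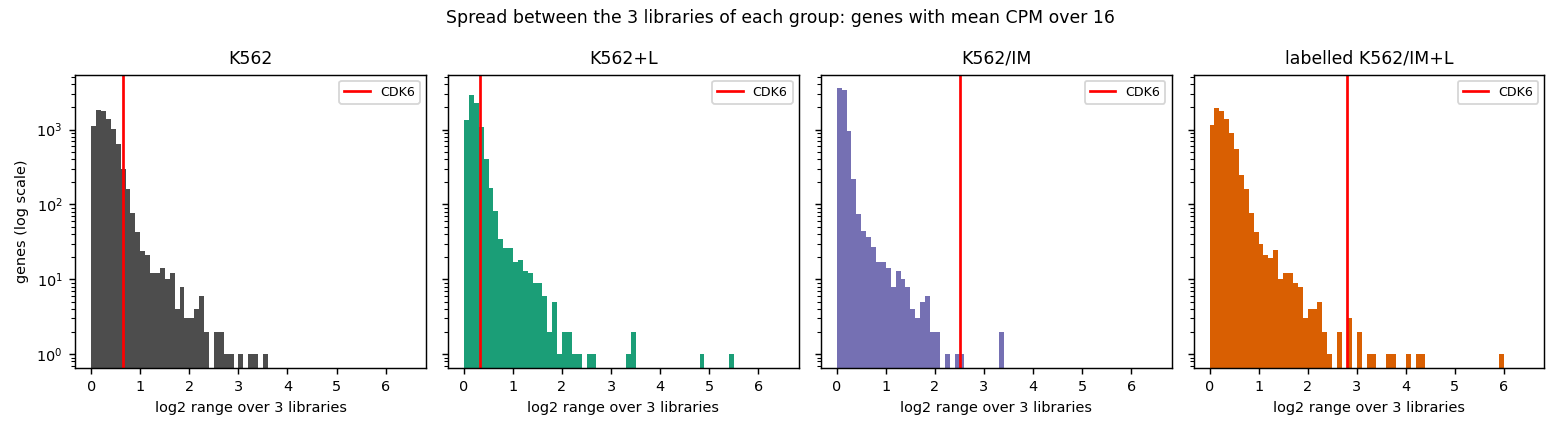
Histograms of the log2 range of log2(CPM + 1) over the 3 libraries of each group for the 8448 genes with a mean over 16 CPM (number of genes on a log axis), with the range of CDK6 as a red line. The line is at 2.52 in K562/IM and 2.81 in the labelled K562/IM+L libraries, near the end of both distributions, against 0.652 in K562 and 0.321 in K562+L.

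CDK6 was higher in K562+L than in K562/IM (log2 fold change 2.16, SE 0.62, adjusted p = 0.013), without overlap. K562+L was also above the labelled K562/IM+L libraries (log2 fold change 2.93, SE 0.70, adjusted p = 0.00654), without overlap. Both calls held with any 1 library left out (adjusted p at most 0.0413 and 0.023). The first of these comparisons differs in line and in treatment. Other tests of CDK6 depended on single libraries. CDK6 rose 1.49-fold with lycorine in K562 (log2 fold change 0.58, SE 0.16, adjusted p = 0.0258), without overlap. The call was lost without K562 replicate 2 (adjusted p = 0.0809), K562+L replicate 1 (0.0787) or K562+L replicate 3 (0.0833). In a single fit over the 12 libraries, which shares 1 estimate of spread, the change was again 0.58 with an adjusted p of 0.569. K562/IM against K562 had a log2 fold change of -1.58 (95% interval -3.09 to -0.08, adjusted p = 0.0685). Without K562/IM replicate 1 it was -2.90 (SE 0.21, adjusted p = 1.14e-04). The labelled K562/IM+L libraries against K562/IM had a log2 fold change of -0.71 (95% interval -2.86 to 1.45, adjusted p = 0.521), which turned to 0.61 without K562/IM replicate 1. Against K562 the same libraries were 5.01-fold lower (adjusted p = 0.0296), a call lost without K562 replicate 1 (adjusted p = 0.0648), K562 replicate 2 (0.0611) or labelled K562/IM+L replicate 3 (0.0695). Without labelled K562/IM+L replicate 2 the log2 fold change was -3.74 (adjusted p = 2.81e-04).

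Counted over the members, 6 of 10 passed at an adjusted p under 0.05 with lycorine in K562, 2 higher (CDKN1A and CDK6) and 4 lower (CDKN1C, CDKN2C, CCND1 and CCND2). Of the 12927 genes tested in that comparison 37.3% passed, 18.2% higher and 19.0% lower. The count was 3 without K562 replicate 2 and 3 without K562+L replicate 3. The members that also changed by more than 1 on the log2 scale were CDKN1C and CCND1, both lower, where 6.39% of all genes did so, 2.38% higher and 4.01% lower. Between K562/IM and K562, 5 of 10 members passed against 57.1% of all genes (30.1% higher and 27.1% lower), with CDKN1A and CCND1 higher and CDKN1C, CCND2 and CCND3 lower. All of these but CCND3 were past the fold threshold, 4 of 10 with 2 in each direction, against 19.1% of all genes (13.9% higher and 5.29% lower). Between the labelled K562/IM+L libraries and K562/IM, 7 of 10 passed against 66.8% of all genes (33.2% higher and 33.6% lower). CDKN1B, CDKN1C, CDKN2C, CCND2 and CCND3 were higher and CDKN1A and CCND1 lower, and 6 were past the fold threshold, 4 higher and 2 lower, against 28.5% of all genes (14.7% higher and 13.8% lower). Against parental K562 the same libraries had 8 of 10 members passing, 4 in each direction, where 56.0% of all genes passed (28.2% higher and 27.8% lower), and 4 of 10 past the fold threshold, where 23.8% of all genes were. At the threshold on the adjusted p alone, the members' share was thus near that of all genes in the 2 comparisons with K562/IM. The median log2 fold change of the members was -0.11, -0.23 and 0.27 in the first 3 comparisons, beside medians over all genes of 0.00, 0.04 and -0.01.

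**Figure D4:**
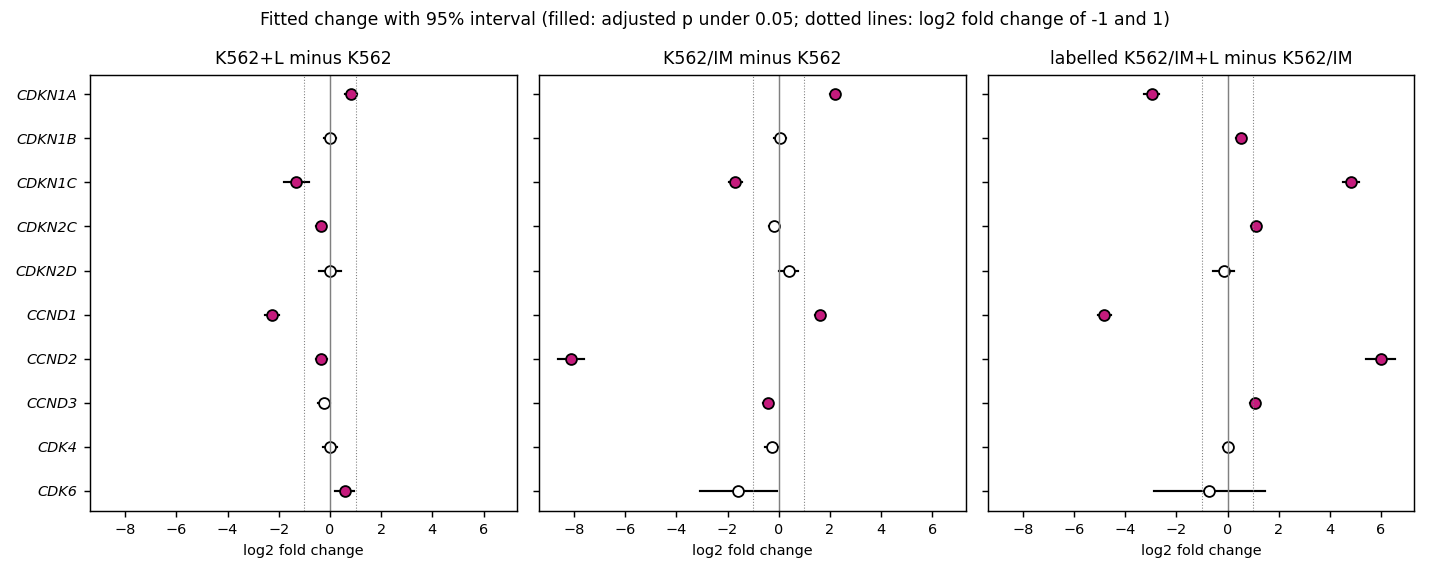
Fitted log2 fold change of the 10 members with its 95% interval in the 3 comparisons with an untreated group of the same name or the parental line; filled points passed at an adjusted p under 0.05, and dotted lines mark a change of 1 in either direction. CCND2 lies at -8.11 in the middle panel and at 5.98 in the right one, and the interval of CDK6 is wide in both.

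The difference between the labelled lycorine effects of the lines passed for 7 of 10 members, where 61.7% of the 13995 genes tested did. It passed for CDKN1A, CDKN1B, CDKN1C, CDKN2C, CCND1, CCND2 and CCND3. CDKN1A, CDKN1C, CDKN2C and CCND2 passed in both lines with opposite signs, and CCND1 passed with the same sign in both. The share of all genes that passed in both with opposite signs was not computed. With 1 library left out, the call in K562 was lost in 4 of the 6 fits for CCND2 and in 2 for CDKN2C. CDK4 had a difference of -0.03 (95% interval -0.35 to 0.30) and CDKN2D one of -0.18 (95% interval -0.77 to 0.40). For CDK6 it was -1.31 (95% interval -3.61 to 1.00), and it passed without labelled K562/IM+L replicate 2 (-2.74, adjusted p = 0.0183). In all, the 10 members gave 30 pairs of neighbouring group levels, of which 17 passed and 13 did not. The matching share over all genes was not computed, so this count describes the members only. CDKN2C in K562/IM over K562+L (adjusted p = 0.0426) was lost with any of the 6 libraries left out (adjusted p = 0.0593 to 0.19), and CCND3 in K562+L over K562/IM (adjusted p = 0.0332) with 5 of the 6 (adjusted p = 0.056 to 0.0811), with K562+L replicate 3 the exception. Some of these pairs set K562+L against K562/IM or against the labelled K562/IM+L group, comparisons in which 66.9% and 67.2% of all genes passed.

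The other genes of the G1/S switch in the list were CDK2 and its cyclins, the retinoblastoma family, the E2F and DP factors, activators, ubiquitin ligases and the genes CDKN2A, CDKN2B and CDKN3, 29 in number. CDKN2A and CDKN2B did not pass the filter and the other 27 were tested. With lycorine in K562, 5 were higher and 3 lower, none past the fold threshold, where 18.2% and 19.0% of all genes were higher and lower. Among them RB1, the retinoblastoma gene, rose from 49.6 to 73.3 CPM and CCNE2 from 21.0 to 31.7 CPM, while SKP2, which marks p27 for breakdown, fell from 103.2 to 83.7 CPM. AMBRA1, whose product marks D-type cyclins for breakdown, rose from 44.5 to 66.2 CPM (log2 fold change 0.57, SE 0.088, adjusted p = 0.00282). These 4 were chosen after their values were seen. By value, close relatives on the list went the other way, without overlapping libraries. CCNE1, the gene of the other cyclin E, went from 45.15 to 33.86 CPM. RBL2, of the retinoblastoma family, went from 64.93 to 50.97 CPM. RBL1, of the same family, moved with RB1, from 40.17 to 51.56 CPM, with overlap. In K562/IM against K562, where 30.1% of all genes were higher and 27.1% lower, 4 were higher and 8 lower, and RB1 was past the fold threshold at 100.9 against 49.6 CPM (log2 fold change 1.03, SE 0.11, adjusted p = 1.7e-04). Between labelled K562/IM+L and K562/IM, 2 were higher and 16 lower (median log2 fold change -0.41), where 33.2% of all genes were higher and 33.6% lower. Past the fold threshold were RBL1, the p107 gene, at 21.5 against 61.3 CPM, E2F7, an E2F repressor, at 15.4 against 46.5 CPM, and CCNE2, cyclin E2, at 8.36 against 24.2 CPM.

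The 19 S-phase genes that E2F factors are known to drive encode replication factors and enzymes of nucleotide synthesis. With lycorine in K562, 9 were higher and 0 lower (median log2 fold change 0.21), with all changes under 1, beside 18.2% and 19.0% of all genes. ORC1, part of the origin complex, rose from 139 to 199 CPM (adjusted p = 0.00251) and MCM4, of the replicative helicase, from 485.3 to 646.4 CPM (adjusted p = 0.00425), both named after their values were seen. The 10 that did not pass included PCNA at 277.2 against 240.7 CPM and TK1 at 125.7 against 99.0 CPM, each lower with lycorine by value. K562/IM against K562 had 0 higher and 13 lower, with a median of -0.31, beside 30.1% and 27.1% of all genes. Labelled K562/IM+L libraries had 12 lower and 4 higher than K562/IM, with a median of -0.51, beside 33.6% of all genes lower and 33.2% higher. They had 15 lower and 0 higher than parental K562, with a median of -0.81, beside 27.8% of all genes lower and 28.2% higher. MCM3 stood at 165.1 against 376.5 CPM in K562/IM (log2 fold change -1.16, SE 0.068, adjusted p = 6.83e-06) and UHRF1, a partner of DNA methylation at replication, at 34.4 against 75.7 CPM (log2 fold change -1.11, adjusted p = 7.82e-06). These counts shifted with upper-quartile normalization in place of TMM. With lycorine in K562, 8 were then higher and 1 lower (median 0.17). K562/IM then had 0 higher and 11 lower than K562. The labelled K562/IM+L libraries then had 14 lower and 1 higher than K562, while the counts against K562/IM stayed the same.

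**Figure D5:**
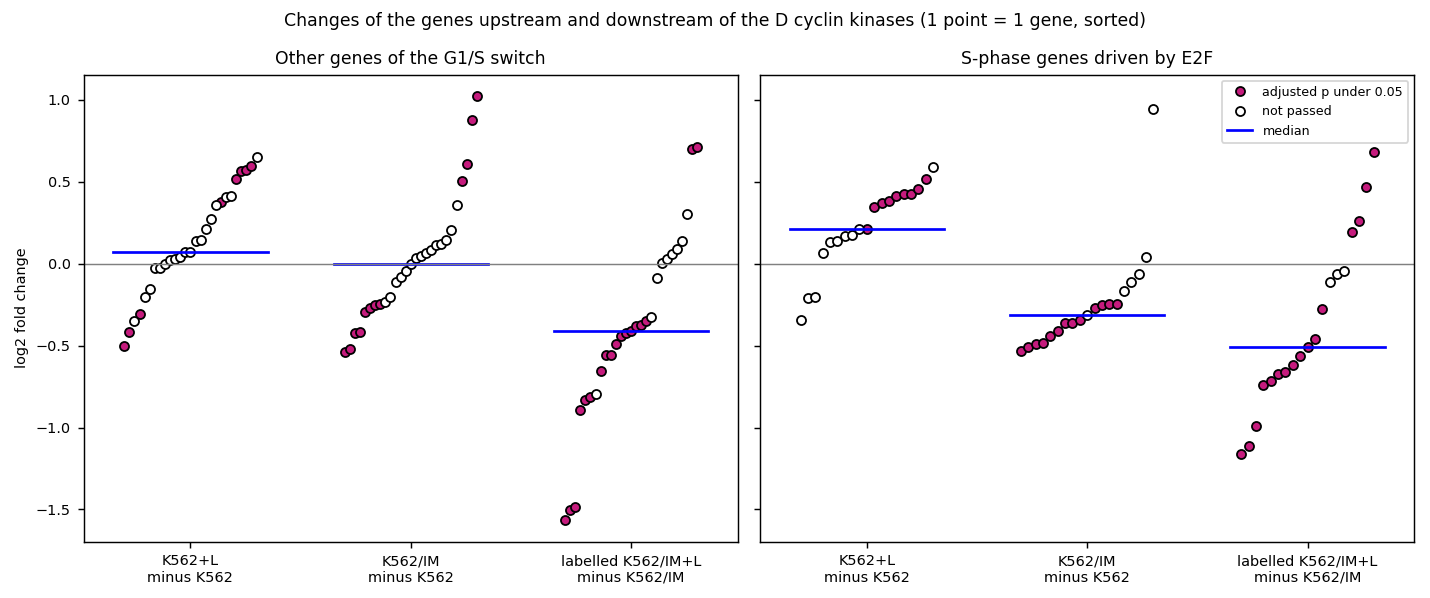
Fitted log2 fold changes of the 27 other genes of the G1/S switch (left) and the 19 S-phase genes (right) in 3 comparisons, 1 point for each gene in order of its change, filled where the adjusted p was under 0.05, with the list's median as a blue line. The S-phase medians are 0.21, -0.31 and -0.51 from left to right, and every filled point of the first of those columns is above 0.

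The list of factors known to act on the promoters of the members held 15 genes, all tested. With lycorine in K562, 8 were higher and 3 lower, beside 18.2% and 19.0% of all genes. JUN, an AP-1 subunit, rose from 29.5 to 304.1 CPM (log2 fold change 3.36, SE 0.10, adjusted p = 6.79e-06) and KLF6 from 54.5 to 236.2 CPM (adjusted p = 0.00218). FOXO3 rose from 33.0 to 80.9 CPM (adjusted p = 4.92e-04) and ATF3, a stress factor, from 24.3 to 59.5 CPM (adjusted p = 1.73e-04). The KLF6 libraries were spread with lycorine, from 128.4 to 304.9 CPM. MYC rose from 141.1 to 236 CPM, and STAT5A fell from 444.1 to 250.9 CPM, both within a change of 1. By value, EGR1, an early response factor, went from 345.6 to 176.5 CPM and STAT5B from 265 to 217 CPM. In K562/IM against K562, 5 were higher and 1 lower, beside 30.1% and 27.1% of all genes, and JUN was at 111.4 against 29.5 CPM (adjusted p = 1.06e-05). STAT5A, at 435 against 444.1 CPM, and MYC, at 129.4 against 141.1 CPM, did not pass there. Between labelled K562/IM+L and K562/IM, 6 were higher and 6 lower, beside 33.2% and 33.6% of all genes, among them FOXO4 at 66.3 against 23.1 CPM and MYC at 56.7 against 129.4 CPM (log2 fold change -1.17, adjusted p = 2.17e-05). EGR1 was at 104.1 against 469.7 CPM there, and CEBPA at 1.72 against 0.699 CPM. STAT5A, at 241 against 435 CPM, and STAT5B, at 389 against 297.6 CPM, went opposite ways there by value.

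Markers of other lineages also moved between the groups. The 8 megakaryocyte genes summed to 7.24 to 9.44 CPM in K562, 8.96 to 9.84 in K562+L, 200.3 to 223.6 in K562/IM and 26.3 to 29.7 in the labelled K562/IM+L libraries, with 3 of the 8 at 0 in every K562/IM library. ITGA2B, the platelet integrin, made up most of the sum in K562/IM at 186 CPM. The 11 lymphoid, myeloid and stromal genes summed to 206 to 219 CPM in K562/IM and to 77.3 to 129 CPM in the other libraries. LYZ made up most of the sum, at 166.3 CPM in K562/IM and 111.1 in K562. The T cell gene CD3D was at 22.0 CPM in K562/IM against 2.15 in K562. The other T cell gene listed, CD3E, did not follow it, at 0.0700 against 0.116 CPM. The collagen gene COL1A2 was at 17.2 against 0.0164 CPM, the latter from 0 to 4 counts in a library. The part of these lineage markers in the levels of the members was not tested.

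The members with the widest range of group means were CCND2, at 6.43 on the log2(CPM + 1) scale, and CDKN1C, at 4.63. Over the 12 libraries and 13956 genes, the patterns most like that of CCND2 were those of CCDC85C (Pearson's r = 0.995), EFHD1 (0.995) and CABLES1 (0.992). EFHD1 had group means of 47.2, 33.4, 4.21 and 21.1 CPM in K562, K562+L, K562/IM and the labelled K562/IM+L libraries. CABLES1 had 19.2, 19.7, 0.747 and 11.2 CPM. Most like CDKN1C were PKLR (r = 0.991), the red cell pyruvate kinase, SCPEP1 (0.990) and LDHD (0.990). PKLR had group means of 76.9, 43.0, 29.5 and 446.9 CPM in the same order. These correlations describe 12 points in 4 tight groups, share their libraries and scaling, and carry no test.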

How the data were processed

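Messenger RNA of 12 libraries was sequenced, 3 for each of 4 groups taken from the treatment and line in the sample labels. The authors deposited whole-number counts per gene symbol, without normalization. The submitters' processing notes name FastQC, STAR, StringTie, DESeq2 and the build hg38. The annotation, the counting options and the use of strand are not given in the sources used here. Low counts may cluster: 67.9% of the 23289 entries between 1 and 25 are divisible by 4 or exceed such a number by 1. The share to be found without clustering was not computed. A fragment may thus be worth about 4 counts, and counting noise may be larger than the totals imply.

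Counts were analysed in R 4.3.3 with edgeR 4.0.16. Genes were filtered with filterByExpr (minimum count 10), scaled by TMM and tested by quasi-likelihood, each comparison on its own 6 libraries, with Benjamini-Hochberg adjustment over all genes tested. A gene passed at an adjusted p under 0.05, and was past the fold threshold at an absolute log2 fold change over 1 as well. The difference between the lycorine effects was an interaction over the 12 libraries. The standard error was the log2 fold change divided by the root of F. Of the symbols, 19029 matched GENCODE release 29 (GRCh38), including the 10 members, for positions and exon lengths. Promoter windows came from RefSeq. The steps were tested on simulated counts. Alternatives were DESeq2 1.42.0, other normalizations and filters, 1 fit over the 12 libraries, counts divided by 4, the replicate number as a block and each library left out.

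The members and gene lists were chosen with earlier results of these data known. All members were named, but test results were not given for every member in each comparison. Fewest were given for K562+L against K562/IM and against the labelled K562/IM+L libraries. From each other list, at most 4 genes in each direction were named by the smallest p among those past the fold threshold without overlapping libraries. List genes outside this rule, such as RB1 with lycorine, MYC, STAT5A, PCNA and TK1, were chosen after their values were seen. CDKN2A, CDKN2B and ABCB1 were named as checks. With 3 libraries against 3, no exact permutation p can be below 0.1. The labels give no batch. One gene and a list that depends on it are not reported here.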

Additional observations from a re-analysis of the deposited data

Results flagged for a closer look

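The lycorine effect as labelled differed between the lines for 7 members in the interaction test (edgeR quasi-likelihood, Benjamini-Hochberg adjustment, K562/IM minus K562, log2 scale). For the inhibitors the difference was -3.80 for CDKN1A (adjusted p = 7.71e-09), 0.505 for CDKN1B (adjusted p = 0.0073), 6.11 for CDKN1C (adjusted p = 1.15e-08) and 1.44 for CDKN2C (adjusted p = 1.02e-06). For the cyclins it was -2.58 for CCND1 (adjusted p = 8.34e-08), 6.30 for CCND2 (adjusted p = 1.93e-09) and 1.28 for CCND3 (adjusted p = 6.36e-06). All 7 rest on the labelled K562/IM+L libraries, whose label is in doubt and whose erythroid sum was above that of every other library.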

How the results depend on the processing

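Of the members' log2 fold changes, 535 kept their side of the threshold under the alternatives that keep every library, 9 no longer passed and 6 newly passed; with 1 library left out these numbers were 449, 23 and 8. No called change reversed, but changes that were not called could turn sign, as CDK6 did without K562/IM replicate 1 in the labelled K562/IM+L libraries against K562/IM (-0.71 to 0.61) and in the difference between the lycorine effects (-1.31 to 0.03). The calls that changed were of CDKN2C, CDKN2D, CCND2, CCND3, CDK4 and CDK6, and of CDKN1C in K562+L against K562/IM alone. With lycorine in K562 the count of members passing ranged from 3 to 7 with 1 library left out, against 6. For K562/IM against K562 it ranged from 5 to 7 against 5, and for the labelled K562/IM+L libraries from 7 to 7 against K562/IM and from 7 to 8 against K562. CDK4 in K562/IM against K562 passed with DESeq2 (adjusted p = 0.0301) and in the fit over the 12 libraries (adjusted p = 0.0398), and CDKN2D passed there with upper-quartile scaling (adjusted p = 0.0468). That scaling moved the median of all genes by more than 0.1 in the labelled K562/IM+L libraries against K562, to 0.171, where the share of calls that were higher went from 50.4% to 61.3%. It moved that median from -0.03 to -0.11 in K562+L against K562/IM, from -0.03 to -0.24 in K562+L against the labelled K562/IM+L group (share higher 49.2% to 38.1%) and from -0.02 to 0.11 in the difference between the lycorine effects. With that scaling CDK4 in K562+L against labelled K562/IM+L (adjusted p = 0.252) and CCND3 in K562+L against K562/IM (adjusted p = 0.209) no longer passed. The correlation of same-numbered libraries ran from -0.569 to 0.408 and was over 0.1 in 4 of 18 pairs. Differently numbered libraries were not set beside them, so these values cannot decide whether the replicate numbers pair the libraries. With the replicate number as a block, CDKN2C (log2 fold change -0.35, adjusted p = 0.0747) and CCND2 (-0.34, adjusted p = 0.0987) no longer passed with lycorine in K562, leaving 4 members. CDK6 passed with the block in K562/IM against K562 (-2.08, adjusted p = 0.00742), giving 6. No other call of a member changed with the block. The causes were not tested. The depth limits CCND2 in K562/IM, at 32 to 52 counts, which may come from fewer fragments.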
